A study of Arabidopsis thaliana with 8 samples.

Results

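The genes described here are 47 *Arabidopsis thaliana* loci known for their response to low oxygen, out of 33544 genes measured. They were chosen by locus identifier, among them the genes for alcohol dehydrogenase (*ADH1*), pyruvate decarboxylase (*PDC1*, *PDC2*), sucrose synthase (*SUS1*, *SUS4*), phytoglobin (*HB1*), plant cysteine oxidase (*PCO1*, *PCO2*) and the transcription factors *HRE1*, *HRE2*, *LBD41* and *HRA1*. The responses of these libraries to ATP were known when the members were chosen, so those responses are given as a description and carry no test. All 47 members had at least 1 FPKM (fragments scaled to exon length and library size) in at least 1 of the 4 conditions, and 46 had at least 1 FPKM in every condition. The exception was AT2G17850.

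In plant cells with enough oxygen, the group VII ethylene response factors are marked for destruction at their N-terminal cysteine, a step that the plant cysteine oxidases carry out with oxygen as a substrate. When oxygen falls, these factors persist and switch on a conserved set of genes for sucrose cleavage, ethanolic fermentation and nitric oxide scavenging. The set includes some of the oxidases, so the response also turns on enzymes that restrain it.

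The study asked how extracellular ATP acts on root growth and whether the α subunit of the heterotrimeric G protein takes part. Gene expression was measured in roots of 4-day-old seedlings in 4 conditions: the Gα null mutant *gpa1-2* after 60 min on medium containing ATP, *gpa1-2* before ATP treatment, wild type of the Wassilewskija ecotype (WS) after 60 min on ATP medium, and WS before treatment. The paper's methods and figure legend for the expression data give older seedlings. Its methods also describe the sampling of root tips, and the ATP dose differs between its methods and that legend. The labels give 2 biological replicates for each condition, but the tables hold 1 value per gene and condition, so the spread between replicates is unknown and every difference compares these libraries, not the conditions. The untreated roots were taken before treatment rather than after 60 min on a medium without ATP, so transfer to a new medium and the passage of 60 min cannot be told apart from ATP. *gpa1-2* is a single mutant line, known from the labels only as a Gα null mutant. Each table is named for its genotype, but the value columns carry a number in place of a treatment. Which column is treated and which untreated was worked out from how many genes each table marks as changed, set against the paper's own totals. The naming of the columns by treatment is therefore not independent of the study's results.

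*GPA1*, the gene disrupted in the mutant, stood at 31.1 FPKM in ATP-treated and 28.6 FPKM in untreated *gpa1-2*, against 46.5 FPKM in ATP-treated and 51.9 FPKM in untreated WS. Its transcript was thus lower in both *gpa1-2* libraries but not lost, and where the insertion lies relative to the counted reads was not analysed here. The libraries held an estimated 11769875 to 13483768 reads, and 19239 to 19352 genes reached 1 FPKM. All 10 root markers were at 1 FPKM or more in every condition. Of 8 leaf markers, 2 to 3 reached 1 FPKM, and their summed level was 6.09 FPKM in ATP-treated and 16.3 FPKM in untreated *gpa1-2*, and 13.2 FPKM in ATP-treated and 16.3 FPKM in untreated WS. Among the root markers *WOX5*, the gene of the quiescent centre, rose with ATP by 2.97 in *gpa1-2* and 3.81 in WS, and *PIN2*, an auxin efflux carrier of the root tip, rose by 1.14 in WS and had a response of 0.82 in *gpa1-2*. The part of these markers in the results below was not tested. In bulk roots, fewer cells of a type and less RNA per cell cannot be told apart.

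The response of a gene to ATP is its log2(FPKM + 1) in treated roots minus that in untreated roots. Genes were kept where either library of a comparison reached 1 FPKM, and a gene was called raised or lowered from 1 upward in size. This scale understates the change of genes with low values. In *gpa1-2*, 18 of the 47 members were raised (38.3%) and 3 were lowered, where 3.6% of 19865 genes were raised and 3.78% lowered. In WS, 26 members were raised (55.3%) and 3 were lowered (6.38%), where 3.75% of 19901 genes were raised and 4.28% lowered. The median response of the members was 0.83 in *gpa1-2* and 1.05 in WS, beside a median over all genes of 0.03 in *gpa1-2* and -0.01 in WS. Members ranged between -1.18 and 3.08 in *gpa1-2* and between -1.31 and 4.61 in WS. These counts describe genes whose responses were known when they were chosen.

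Across both genotypes, 16 members were raised in *gpa1-2* and in WS, 10 were raised in WS alone, 2 were raised in *gpa1-2* alone and 19 were raised in neither. Over all 20350 genes kept in any condition, 1.65% were raised in both, 2.01% in WS alone and 1.87% in *gpa1-2* alone. The 10 members raised in WS alone all had a response above 0 in *gpa1-2*. Some lay close to the threshold. In *gpa1-2* the nearest values were 1.09 for *LBD41* on the upper side and 0.97 for *ETR2* below, and in WS they were 1.03 for AT1G33055 and 0.98 for *LBD41*. The largest responses belonged to members with low levels before treatment. The 10 members with a response of at least 2 in WS had 0.298 to 25.0 FPKM in untreated WS, with a median of 3.38 FPKM, whereas the 19 members raised in neither genotype had 8.34 to 672 FPKM there, with a median of 40.6 FPKM. The untreated level is part of the response, so this relation is a description only.

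**Figure D1:**
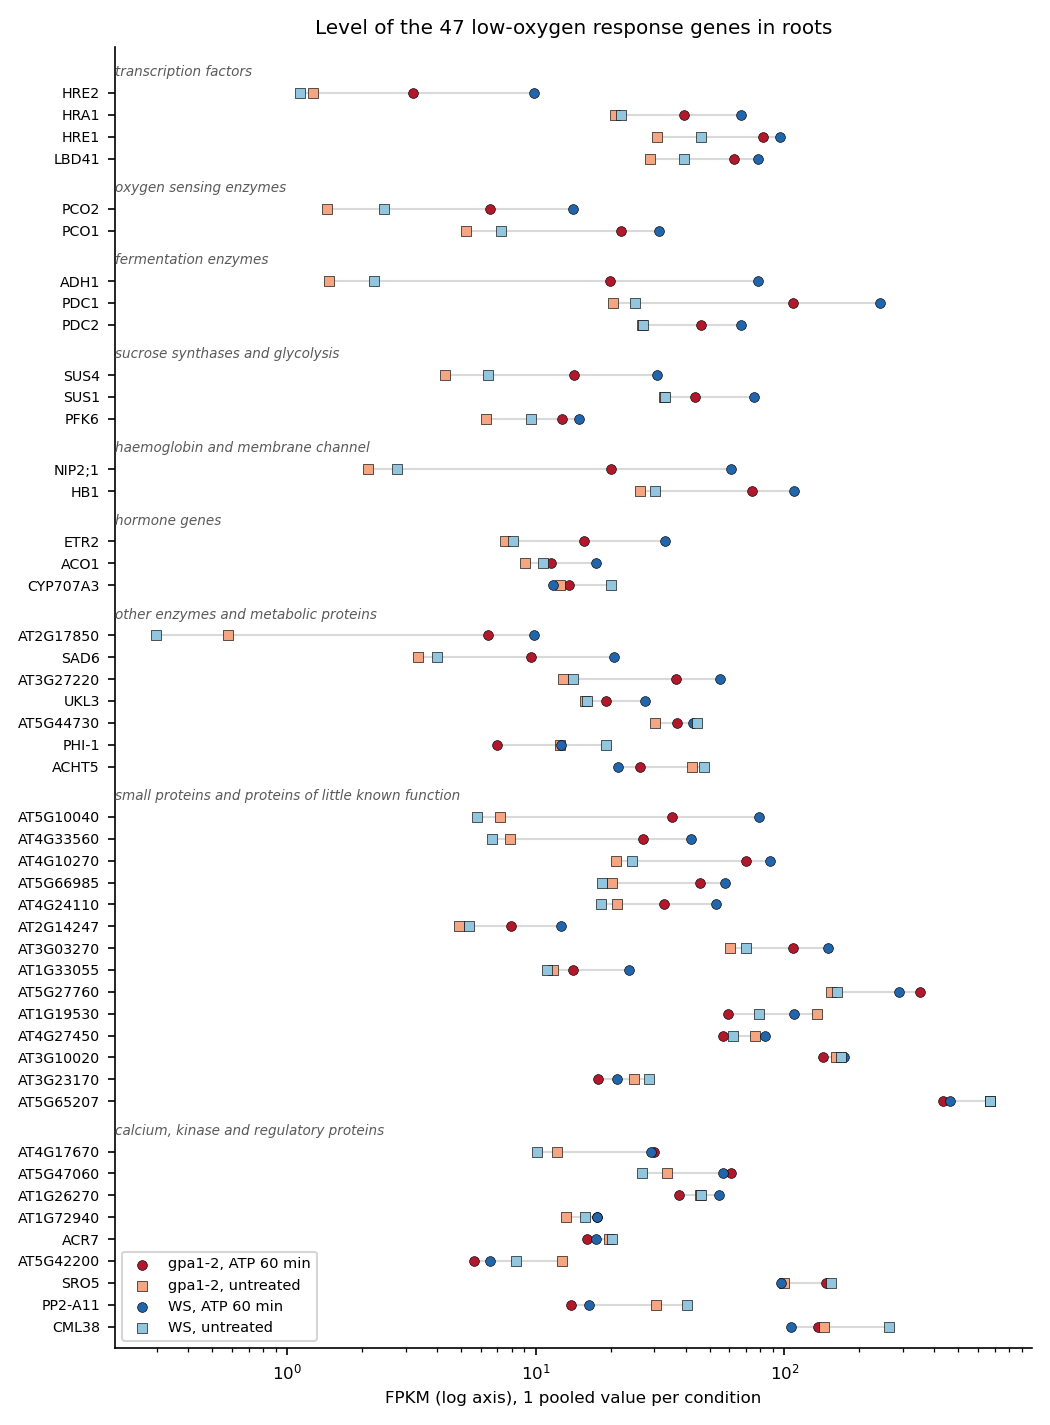
FPKM of each of the 47 members (rows, grouped by role) on a log axis, with 1 pooled value for each of the 4 conditions and no error bars because no replicate values were given. ATP-treated points of *ADH1* and *NIP2;1* lie far to the right of the untreated squares in both genotypes, while *CML38*, *PP2-A11* and *ACHT5* in WS run the other way.

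Among the transcription factors, *HRE2* was the lowest expressed. It had 3.21 FPKM in ATP-treated and 1.27 FPKM in untreated *gpa1-2*, and 9.88 FPKM in ATP-treated and 1.13 FPKM in untreated WS. *HRE2* and its relative *HRE1* encode group VII ethylene response factors that low oxygen induces, and the *HRE2* values rest on only 19, 7, 54 and 6 reads in that order. The response of *HRE2* was 0.89 in *gpa1-2* and 2.35 in WS. *HRE1* had 82.3 FPKM in ATP-treated and 30.7 FPKM in untreated *gpa1-2*, and 96.4 FPKM in ATP-treated and 46.1 FPKM in untreated WS. It was raised in both genotypes, with a response of 1.39 in *gpa1-2* and 1.05 in WS, and its level was lower in *gpa1-2* than in WS under either treatment. *HRA1*, a trihelix factor that holds back the group VII factor RAP2.12, had 39.3 FPKM in ATP-treated and 20.8 FPKM in untreated *gpa1-2*, and 66.7 FPKM in ATP-treated and 22.0 FPKM in untreated WS. *HRA1* therefore started at like levels in both genotypes and had a response of 0.89 in *gpa1-2* and 1.56 in WS. *LBD41*, a factor of the lateral organ boundaries family, had 62.5 FPKM in ATP-treated and 28.8 FPKM in untreated *gpa1-2*, and 78.6 FPKM in ATP-treated and 39.4 FPKM in untreated WS, which put it at the threshold in both genotypes.

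The oxygen sensing enzymes *PCO1* and *PCO2* were raised in both genotypes. *PCO1* had 21.9 FPKM in ATP-treated and 5.25 FPKM in untreated *gpa1-2*, and 31.3 FPKM in ATP-treated and 7.25 FPKM in untreated WS. *PCO2* had 6.52 FPKM in ATP-treated and 1.44 FPKM in untreated *gpa1-2*, and 14.1 FPKM in ATP-treated and 2.45 FPKM in untreated WS. The responses were near each other for *PCO1*, with 1.88 in *gpa1-2* and 1.97 in WS, and for *PCO2* they were 1.62 in *gpa1-2* and 2.13 in WS. In each pair of libraries both genes were lower in *gpa1-2*.

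The largest response in both genotypes was that of *ADH1*, a fermentation enzyme. *ADH1*, which reduces acetaldehyde to ethanol, had 19.9 FPKM in ATP-treated and 1.47 FPKM in untreated *gpa1-2*, and 78.3 FPKM in ATP-treated and 2.24 FPKM in untreated WS. Its response was 3.08 in *gpa1-2* and 4.61 in WS, where it ranked 6 among the rises of 18916 genes with at least 20 reads in *gpa1-2* and 3 among those of 18879 genes in WS. On the scale of depth-scaled reads, ATP-treated over untreated, *ADH1* changed 13.6-fold in *gpa1-2* (95% interval 8.71 to 22.2) and 35.0-fold in WS (24.5 to 51.7). These intervals are exact conditional intervals for counting error only, and the reads were estimated from the deposited counts. *PDC1*, which makes acetaldehyde from pyruvate, had 108 FPKM in ATP-treated and 20.53 FPKM in untreated *gpa1-2*, and 243 FPKM in ATP-treated and 25.0 FPKM in untreated WS. Its read ratio was 5.28 in *gpa1-2* (4.78 to 5.85) and 9.73 in WS (8.90 to 10.7), so the intervals did not overlap for either *ADH1* or *PDC1*. *PDC2*, a close paralog of *PDC1*, had 46.0 FPKM in ATP-treated and 26.6 FPKM in untreated *gpa1-2*, and 67.0 FPKM in ATP-treated and 27.1 FPKM in untreated WS. Its response was 0.77 in *gpa1-2*, short of the threshold, and 1.28 in WS.

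Of the sucrose synthases, which split sucrose into fructose and UDP-glucose, *SUS4* was raised in both genotypes and *SUS1* passed the threshold in WS alone. *SUS4* had 14.2 FPKM in ATP-treated and 4.32 FPKM in untreated *gpa1-2*, and 30.7 FPKM in ATP-treated and 6.43 FPKM in untreated WS. *SUS1* had 43.5 FPKM in ATP-treated and 32.7 FPKM in untreated *gpa1-2*, and 75.6 FPKM in ATP-treated and 33.1 FPKM in untreated WS. The untreated level of *SUS1* in *gpa1-2* was 0.986 times that in WS, and its response was 0.40 in *gpa1-2* and 1.17 in WS. How reads shared by the close pairs *SUS1* and *SUS4*, or *PDC1* and *PDC2*, were divided is not given in the sources used here. *PFK6*, a phosphofructokinase, was raised in neither genotype, with responses of 0.90 in *gpa1-2* and 0.59 in WS.

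*HB1*, a phytoglobin that removes nitric oxide, and *NIP2;1*, a channel of the aquaporin family that transports lactic acid, were raised in both genotypes. *NIP2;1* had 19.98 FPKM in ATP-treated and 2.11 FPKM in untreated *gpa1-2*, and 61.2 FPKM in ATP-treated and 2.76 FPKM in untreated WS. *HB1* had 74.2 FPKM in ATP-treated and 26.3 FPKM in untreated *gpa1-2*, and 109 FPKM in ATP-treated and 30.1 FPKM in untreated WS. The response of *NIP2;1*, at 2.76 in *gpa1-2* and 4.05 in WS, came next in size to that of *ADH1* in both genotypes. That of *HB1* was 1.46 in *gpa1-2* and 1.83 in WS.

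The hormone genes were less uniform. *ETR2*, an ethylene receptor, had 15.7 FPKM in ATP-treated and 7.54 FPKM in untreated *gpa1-2*, and 33.2 FPKM in ATP-treated and 8.08 FPKM in untreated WS. Its response was 0.97 in *gpa1-2*, just under the threshold, and 1.91 in WS. *ACO1*, an enzyme of the last step of ethylene synthesis, stayed under the threshold with 0.31 in *gpa1-2* and 0.65 in WS, and *CYP707A3*, which breaks down abscisic acid, had 0.12 in *gpa1-2* and -0.73 in WS.

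In the group of other enzymes and metabolic proteins, 3 of 7 members were raised in each genotype. *SAD6*, a stearoyl-ACP desaturase, had 9.58 FPKM in ATP-treated and 3.37 FPKM in untreated *gpa1-2*, and 20.6 FPKM in ATP-treated and 4.00 FPKM in untreated WS. AT3G27220, a protein with kelch repeats, had 36.7 FPKM in ATP-treated and 12.9 FPKM in untreated *gpa1-2*, and 55.0 FPKM in ATP-treated and 14.1 FPKM in untreated WS. Both were raised in the 2 genotypes, *SAD6* by 1.28 in *gpa1-2* and 2.11 in WS and AT3G27220 by 1.44 in *gpa1-2* and 1.89 in WS. The rhodanese-like AT2G17850 had 6.42 FPKM in ATP-treated and 0.577 FPKM in untreated *gpa1-2*, and 9.86 FPKM in ATP-treated and 0.298 FPKM in untreated WS. These values rest on 24, 2, 34 and 1 reads in that order, and the read ratio was 11.1 in *gpa1-2* (2.76 to 97.1) and 33.1 in WS (5.56 to 1347), so its size is poorly known. The uridine kinase *UKL3*, the HAD-like protein AT5G44730 and *PHI-1* passed the threshold in neither genotype, with responses of -0.76 to 0.28 in *gpa1-2* and -0.56 to 0.73 in WS. *ACHT5*, an atypical thioredoxin, fell by 1.11 in WS and had a response of -0.68 in *gpa1-2*, with 26.1 FPKM in ATP-treated and 42.6 FPKM in untreated *gpa1-2* and 21.5 FPKM in ATP-treated and 47.5 FPKM in untreated WS.

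The 14 members of the group of small proteins and proteins of little known function had a median response of 0.60 in *gpa1-2* and 1.06 in WS. AT5G10040, whose product has no known function, had 35.2 FPKM in ATP-treated and 7.15 FPKM in untreated *gpa1-2*, and 78.6 FPKM in ATP-treated and 5.82 FPKM in untreated WS. It ranked behind *ADH1* and *NIP2;1* in WS, with a response of 2.15 in *gpa1-2* and 3.55 in WS. AT4G33560 and AT4G10270, both of a wound-responsive family, were raised in both genotypes as well. AT4G33560 had 27.0 FPKM in ATP-treated and 7.85 FPKM in untreated *gpa1-2*, and 42.2 FPKM in ATP-treated and 6.64 FPKM in untreated WS. AT4G10270 had 69.8 FPKM in ATP-treated and 21.0 FPKM in untreated *gpa1-2*, and 87.2 FPKM in ATP-treated and 24.3 FPKM in untreated WS. AT5G66985 had 45.6 FPKM in ATP-treated and 20.3 FPKM in untreated *gpa1-2*, and 57.8 FPKM in ATP-treated and 18.5 FPKM in untreated WS. In all 3 genes the untreated levels of the genotypes lay within 1.18-fold of each other, and ATP-treated *gpa1-2* was below ATP-treated WS.

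A further 4 genes of this group were raised in WS alone. AT4G24110 had 32.7 FPKM in ATP-treated and 21.2 FPKM in untreated *gpa1-2*, and 53.1 FPKM in ATP-treated and 18.4 FPKM in untreated WS. AT3G03270, of an adenine nucleotide hydrolase-like family, had 108 FPKM in ATP-treated and 60.4 FPKM in untreated *gpa1-2*, and 150 FPKM in ATP-treated and 70.2 FPKM in untreated WS. AT1G33055 had 14.2 FPKM in ATP-treated and 11.8 FPKM in untreated *gpa1-2*, and 23.8 FPKM in ATP-treated and 11.1 FPKM in untreated WS. These 3 had responses of 0.60, 0.83 and 0.25 in *gpa1-2*. AT2G14247 had 7.96 FPKM in ATP-treated and 4.91 FPKM in untreated *gpa1-2*, and 12.6 FPKM in ATP-treated and 5.37 FPKM in untreated WS, on 16 to 41 reads. AT5G27760, of a hypoxia-responsive family, ran the other way, with 351 FPKM in ATP-treated and 154 FPKM in untreated *gpa1-2*, and 288 FPKM in ATP-treated and 162 FPKM in untreated WS. It was raised by 1.19 in *gpa1-2* and had a response of 0.82 in WS.

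AT1G19530, of unknown function, was the member whose responses differed most. It had 59.2 FPKM in ATP-treated and 135 FPKM in untreated *gpa1-2*, and 109 FPKM in ATP-treated and 78.7 FPKM in untreated WS. It fell by 1.18 in *gpa1-2* and had a response of 0.47 in WS. The remaining 4 members of this group, AT4G27450, AT5G65207, AT3G23170 and AT3G10020, had responses of -0.63 to -0.17 in *gpa1-2* and -0.54 to 0.43 in WS. AT5G65207 was the most abundant member, with 434 FPKM in ATP-treated and 671 FPKM in untreated *gpa1-2*, and 461 FPKM in ATP-treated and 672 FPKM in untreated WS.

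The 9 calcium, kinase and other regulatory proteins did not share the rise, with a median response of -0.09 in *gpa1-2* and -0.19 in WS. Of them AT4G17670 was raised in both genotypes and AT5G47060 in WS alone. AT4G17670 had 29.8 FPKM in ATP-treated and 12.1 FPKM in untreated *gpa1-2*, and 29.2 FPKM in ATP-treated and 10.1 FPKM in untreated WS. AT5G47060 had 61.2 FPKM in ATP-treated and 33.8 FPKM in untreated *gpa1-2*, and 56.3 FPKM in ATP-treated and 26.8 FPKM in untreated WS. With AT5G27760, these were the 3 of 28 raised members whose ATP-treated level was not lower in *gpa1-2*. *CML38*, a calmodulin-like calcium sensor, had 136 FPKM in ATP-treated and 144 FPKM in untreated *gpa1-2*, and 106 FPKM in ATP-treated and 264 FPKM in untreated WS. It fell by 1.31 in WS and had a response of -0.09 in *gpa1-2*. *SRO5*, a relative of the stress regulator RCD1, had 146 FPKM in ATP-treated and 99.7 FPKM in untreated *gpa1-2*, and 96.5 FPKM in ATP-treated and 154 FPKM in untreated WS. Its response was 0.55 in *gpa1-2* and -0.67 in WS, so the single values ran in opposite directions.

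*PP2-A11*, of the phloem protein 2 family, was lowered in both genotypes. It had 13.8 FPKM in ATP-treated and 30.5 FPKM in untreated *gpa1-2*, and 16.3 FPKM in ATP-treated and 40.6 FPKM in untreated WS, a fall of 1.09 in *gpa1-2* and 1.26 in WS. The ubiquitin ligase AT5G42200 fell by 1.05 in *gpa1-2* and had a response of -0.30 in WS, with 5.63 FPKM in ATP-treated and 12.8 FPKM in untreated *gpa1-2* and 6.57 FPKM in ATP-treated and 8.34 FPKM in untreated WS. The phosphatidylinositol 4-kinase AT1G26270, the TIR domain protein AT1G72940 and *ACR7* had responses of -0.27 to 0.39 in *gpa1-2* and -0.19 to 0.23 in WS.

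**Figure D2:**
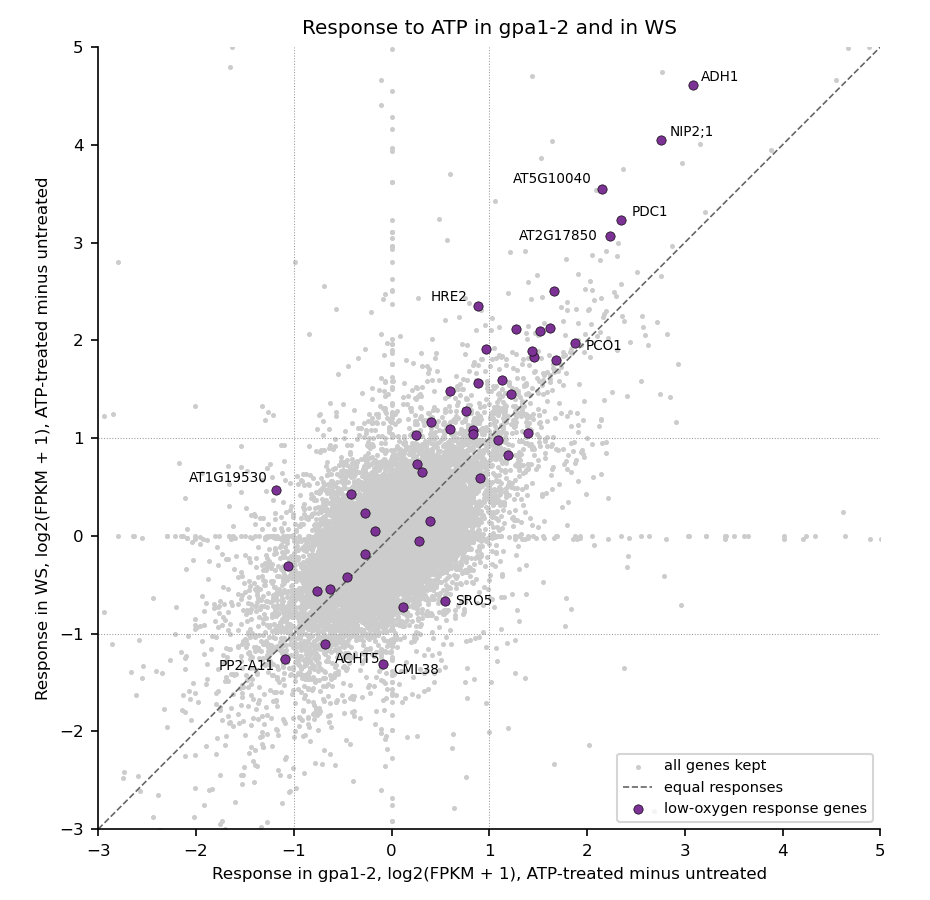
Response of each member (purple) and of each other gene with at least 1 FPKM in any condition (grey) in *gpa1-2* (horizontal axis) and in WS (vertical axis), as log2(FPKM + 1), ATP-treated minus untreated; 183 of 20350 genes lie outside the range of -3 to 5 that is drawn. The dashed line marks equal responses, and 36 of the 47 members lie above it, a lower response in *gpa1-2* than in WS.

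The responses in *gpa1-2* and WS come from separate libraries, and over the 47 members they had a Pearson r of 0.894, which is across genes and describes these libraries only. The members were chosen with both responses known, and r over all genes was not computed, so whether 0.894 is particular to the members was not tested. The question of whether the response depended on the genotype was put to the difference, response in *gpa1-2* minus response in WS. This difference was -1 or lower for 5 members (10.6%) and 1 or higher for 2 (4.26%), where 3.03% of 20350 genes were that much lower and 2.8% that much higher. Of the 5 lower members, *ADH1* at -1.53, *HRE2* at -1.47, AT5G10040 at -1.39 and *NIP2;1* at -1.29 had a positive response in both genotypes that was smaller in *gpa1-2*, and AT1G19530 at -1.65 had a negative response in *gpa1-2* and a positive response in WS. The 2 members on the other side, *CML38* and *SRO5*, both had 1.22. The median difference was -0.45 and it was below 0 for 36 of 47 members, whereas its median over all genes was 0.03 and 53.7% of them were above 0.

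Members raised in a genotype were selected on their response there, so they were set beside all genes raised in that genotype. The members were also chosen with the responses in both genotypes known. Setting them beside other raised genes does not correct for that choice, so these shares are a description only. Of the 18 members raised in *gpa1-2*, 15 (83.3%) had the lower response in *gpa1-2*, against 217 of 716 genes (30.3%) raised there. Their median response was 1.57 in *gpa1-2* and 2.03 in WS, where all genes raised in *gpa1-2* had 1.36 in *gpa1-2* and 0.95 in WS. Of the 26 members raised in WS, 25 (96.2%) had the lower response in *gpa1-2*, against 627 of 746 genes (84.0%). The exception was *HRE1*. It overlaps another annotated gene, but so do members with the lower response in *gpa1-2*, such as *ADH1*, *NIP2;1* and AT5G10040. Among the 19 members raised in neither genotype the median difference was -0.08, and 11 of them were below 0.

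The counting error separated some of these pairs. The 95% interval of the read ratio in *gpa1-2* lay wholly below that in WS for 13 members, which were *ADH1*, *PDC1*, *PDC2*, *SUS1*, *SUS4*, *HRA1*, *ETR2*, *UKL3*, AT4G24110, AT1G33055, AT4G27450, AT1G19530 and AT1G26270. It lay wholly above for 4 members, which were *CML38*, *SRO5*, *CYP707A3* and AT5G27760. Over all 20350 genes the interval in *gpa1-2* lay wholly below for 8.68% and wholly above for 12.5%. For the other 30 members the intervals overlapped, *HRE2*, *NIP2;1* and AT5G10040 among them, although their differences passed the threshold. The intervals of *NIP2;1* touched narrowly, at 6.11 to 15.4 in *gpa1-2* and 15.2 to 33.6 in WS, and those of AT5G10040 were 3.0 to 8.52 in *gpa1-2* and 8.01 to 24.6 in WS. The spread between replicates is not part of these intervals.

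**Figure D3:**
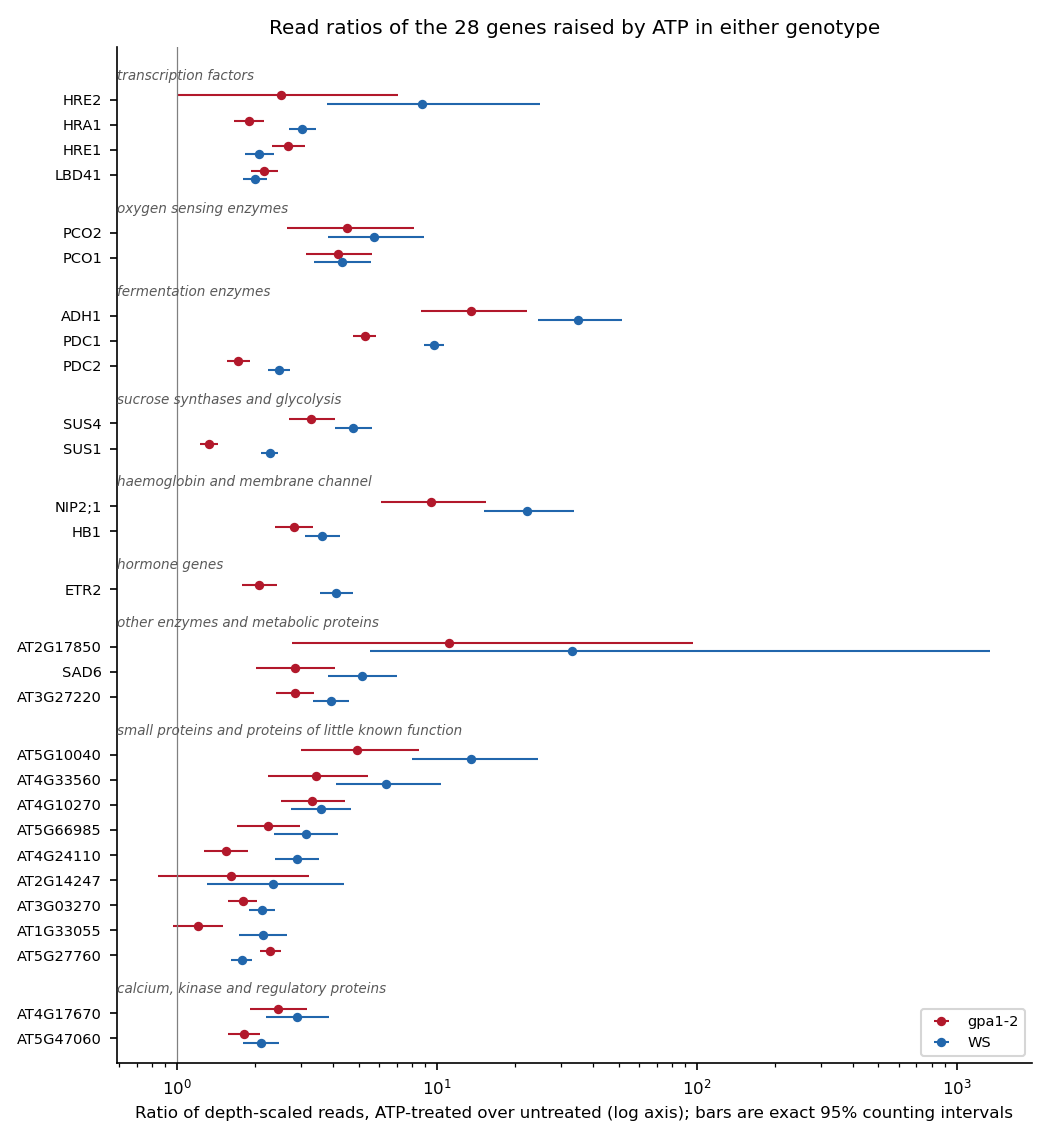
Ratio of depth-scaled reads, ATP-treated over untreated, on a log axis for the 28 members raised in either genotype, with *gpa1-2* above WS in each row and exact 95% counting intervals as bars. The *gpa1-2* interval lies clear of and below the WS interval for *ADH1*, *PDC1*, *SUS1* and *ETR2*, and the widest bars belong to *HRE2* and AT2G17850.

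The level in *gpa1-2* was then set against that in WS within each treatment. These comparisons share their libraries with the responses above and are given as levels beside them. In ATP-treated roots, 9 of 47 members (19.1%) were lower in *gpa1-2* by 1 or more in log2(FPKM + 1) and 0 were higher, where 1.38% of 19774 genes were lower and 1.29% higher. The 9 were *ADH1* at -1.92, *NIP2;1* at -1.57, *HRE2* at -1.37, *PDC1* at -1.16, AT5G10040 at -1.14, *SUS4* at -1.05, *ETR2* at -1.04, *SAD6* at -1.03 and *PCO2* at -1.0. With a pseudocount of 5 in place of 1, 4 members passed. *ADH1* and *PDC1* are fermentation enzymes, *HRE2* is a transcription factor and AT5G10040 has no known function. Sucrose cleavage, transport, oxygen sensing, ethylene perception and fatty acid desaturation had a single gene each. Of these, *SUS4*, *ETR2*, *SAD6* and *PCO2* lay close to the threshold. The median over the members was -0.52, with 39 of 47 below 0. All genes had a median of 0.01, and 51.9% of them were above 0. The reads of ATP-treated *gpa1-2* over ATP-treated WS gave *ADH1* a ratio of 0.255 (0.224 to 0.289), *PDC1* one of 0.446 (0.425 to 0.468) and *SUS4* one of 0.464 (0.414 to 0.521). The interval lay below 1 for 31 members and above 1 for 4, where it lay below 1 for 17.8% of 19774 genes and above 1 for 20%.

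In untreated roots, 46 members could be compared, and 0 of them were higher and 0 were lower in *gpa1-2* by at least 1, where 1.13% of 19826 genes were higher and 1.05% lower. The median over the members was -0.14, with 35 of 46 below 0. All genes had a median of -0.02, and 46.1% of them were above 0. The members farthest apart were *CML38* at -0.87, with 144 FPKM in *gpa1-2* and 264 FPKM in WS, and AT1G19530 at 0.77, with 135 FPKM in *gpa1-2* and 78.7 FPKM in WS. Among the 28 members raised by ATP in either genotype, the median difference between genotypes was -0.62 in ATP-treated roots and -0.10 in untreated roots. Before treatment the interval of the read ratio lay below 1 for 12 of the 46 members and above 1 for 4, where it lay below 1 for 16.2% of 19826 genes and above 1 for 12.0%.

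**Figure D4:**
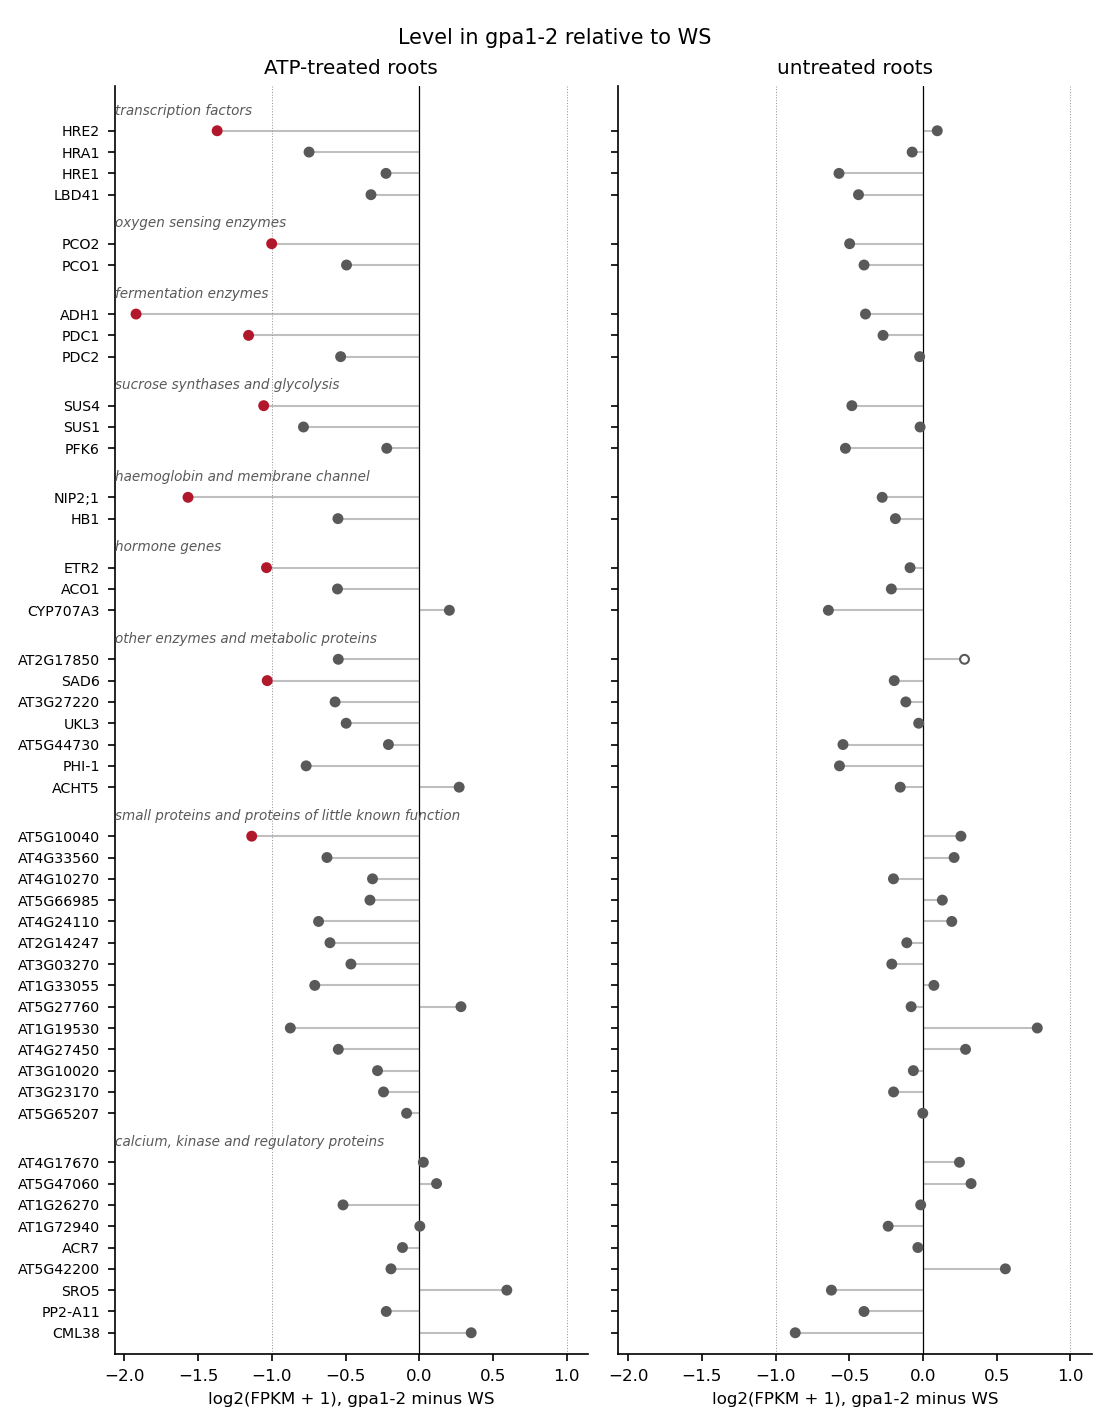
Level of each member as log2(FPKM + 1), *gpa1-2* minus WS, in ATP-treated roots (left panel) and untreated roots (right panel), with the 9 members at -1 or lower in red and the open circle for AT2G17850, which was under 1 FPKM in both untreated libraries. Most points lie left of 0 in ATP-treated roots, and in untreated roots they lie between -0.87 and 0.77.

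The members were also set beside 70 other genes of the low-oxygen pathway and its enzymes that are no members. Of the 65 with at least 1 FPKM in *gpa1-2*, 1 was raised and 2 were lowered by ATP, with a median response of 0.15. Of the 64 kept in WS, 4 were raised and 1 was lowered, with a median of 0.07. The constitutive group VII factors that act upstream of the members did not rise. *RAP2.12* had 183 FPKM in ATP-treated and 177 FPKM in untreated *gpa1-2*, and 190 FPKM in ATP-treated and 181 FPKM in untreated WS. *RAP2.2* had responses of -0.14 in *gpa1-2* and -0.04 in WS, and *RAP2.3* was lowered by 1.89 in *gpa1-2* and by 1.31 in WS.

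The other plant cysteine oxidases, *PCO3*, *PCO4* and *PCO5*, had responses of -0.29 to -0.03 in *gpa1-2* and -0.48 to -0.03 in WS, unlike *PCO1* and *PCO2*. The 7 genes kept of 8 for the degradation of the group VII factors and other substrates of that route, such as the ubiquitin ligase *PRT6*, had 0 raised and 0 lowered in either genotype. The same held for the 7 kept of 8 other genes of sucrose cleavage, where *SUS3* had a response of -0.31 in *gpa1-2* and 0.50 in WS, and for the phytoglobins *HB2* and *GLB3*, with 0.29 to 0.51 in *gpa1-2* and 0.32 to 0.62 in WS. The genes of glycolysis, the route that feeds fermentation, had 0 of 28 raised in *gpa1-2* and in WS. Of these only *PFP beta2*, a subunit of pyrophosphate-dependent phosphofructokinase, was lowered, by 1.07 in *gpa1-2*, and its response in WS was -0.83.

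Raised genes outside the members came from alanine and GABA metabolism and from acetaldehyde oxidation. *GAD4*, a glutamate decarboxylase that makes GABA, had 9.69 FPKM in ATP-treated and 1.16 FPKM in untreated *gpa1-2*, and 10.4 FPKM in ATP-treated and 0.570 FPKM in untreated WS, and was raised by 2.31 in *gpa1-2* and 2.87 in WS. These values rest on 189, 21, 188 and 10 reads in that order. *ALAAT1*, an alanine aminotransferase, was raised by 1.07 in WS and had 0.78 in *gpa1-2*. *GAD2* was raised by 1.40 in WS and had 0.77 in *gpa1-2*, and the aldehyde dehydrogenase *ALDH2B7* was raised by 1.19 in WS and had 0.92 in *gpa1-2*. By the reference annotation *GAD4*, *GAD2* and *ALDH2B7* overlap other annotated genes. *PDC3*, a paralog of *PDC1*, and the lactate dehydrogenase *LDH1* passed the threshold in neither genotype. Another paralog, *PDC4*, was under 1 FPKM in every condition and was not kept.

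**Figure D5:**
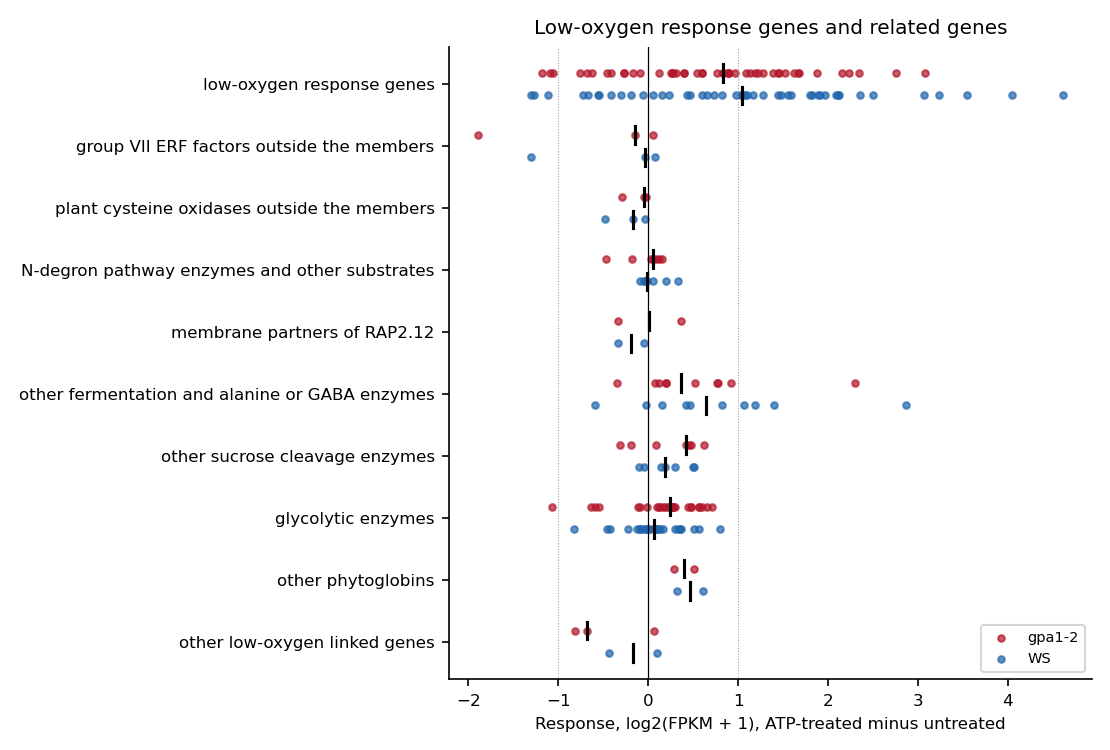
Responses as log2(FPKM + 1), ATP-treated minus untreated, of the 47 members and of 9 lists of related genes outside them, with *gpa1-2* above WS, a point for each gene kept in that comparison and a black bar at the median. The members reach 3.08 in *gpa1-2* and 4.61 in WS, and of the genes outside them only *GAD4* lies beyond 2.

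The position of the members bears on how their reads can be read. By the reference annotation, 15 members overlap another annotated gene, and the use of strand in the counting is not given in the sources used here, so reads of the 2 genes of a pair may not be told apart. For 13 overlapping genes the tables held values, and 0 of these genes were raised in either genotype. Over all genes 3.6% of 19865 were raised in *gpa1-2* and 3.75% of 19901 in WS, so 0 of 13 says little. AT5G47070, which overlaps AT5G47060, was lowered by 1.18 in *gpa1-2* and by 1.98 in WS. AT1G72370, which overlaps *HRE1*, had 302 to 437 FPKM over the conditions, more than *HRE1*. Its response was 0.51 in *gpa1-2* and 0.08 in WS. AT1G77122, which overlaps *ADH1*, had 4.03 FPKM in ATP-treated and 3.19 FPKM in untreated *gpa1-2*, and 3.98 FPKM in ATP-treated and 4.58 FPKM in untreated WS. Among the 32 members that overlap no other gene, 12 were raised in *gpa1-2* and 18 in WS, beside 3.6% and 3.75% of all genes. Their median response was 0.80 in *gpa1-2* and 1.22 in WS. In ATP-treated roots 6 of these 32 members were lower in *gpa1-2* by at least 1, where 1.38% of 19774 genes were.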

How the data were processed

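The authors deposited 2 tables, 1 for each genotype, each with a gene count and an FPKM value per condition for 33544 genes. The deposited counts are a scaled signal rather than whole reads, and the authors' FPKM values are nearly proportional to it, with a ratio of FPKM to count constant within 1% across conditions for 88.1% of 20683 genes and 43 of 47 members. The labels and methods describe Affymetrix arrays, and the processing notes name MAS5, whereas FPKM and counts come from sequencing. Aligner, counting program, annotation, build and strand setting are not given in the sources used here. The columns of fold changes, p-values and FDR hold the authors' own comparisons and were not used. The 47 members and the lists of related genes and markers were chosen with earlier results of these data known. The text names all members, with values in every condition for those changed by at least 1, and list genes that changed by at least 1 with at least 20 reads or belong to the family of a member.

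From the FPKM values, differences of log2(FPKM + 1) were computed over genes with at least 1 FPKM, and a difference counted from 1 in size. With 1 value per condition no test was run. Reads were estimated from the steps of the low counts, where 98.9% to 99.2% of low values lay within 0.1 of a whole read. Ratios of depth-scaled reads have exact 95% conditional (Clopper-Pearson) intervals, which cover counting error only. Both steps were checked on simulated data. Alternatives were pseudocounts of 0.1 and 5, no filter, a filter at 10 FPKM, at least 20 reads, median centring, upper-quartile scaling, quantile normalization, thresholds of 2 and of 1.5-fold, and the scaled counts, which were added after seeing the data. Symbols and overlaps came from the RefSeq annotation TAIR10.1, which matched 32797 genes and all 47 members, and promoter and protein sequences were not analysed here. The scripts ran in Python 3.11.15 with pandas 2.3.3, numpy 2.4.6, matplotlib 3.10.9 and scipy 1.17.1.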

Additional observations from a re-analysis of the deposited data

Results flagged for a closer look

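For 7 members the single response in *gpa1-2* and that in WS ran in opposite directions. The difference between genotypes was not tested, because each genotype has 1 value per condition. Responses are differences of log2(FPKM + 1), and the difference is the response in *gpa1-2* minus that in WS. AT1G19530 had -1.18 in *gpa1-2* and 0.47 in WS, a difference of -1.65. *SRO5* had 0.55 in *gpa1-2* and -0.67 in WS, a difference of 1.22. *CYP707A3*, an enzyme of abscisic acid breakdown, had 0.12 in *gpa1-2* and -0.73 in WS, a difference of 0.85. AT4G27450 had -0.41 in *gpa1-2* and 0.43 in WS, a difference of -0.84. The other 3 were smaller, with a difference of -0.5 for the phosphatidylinositol 4-kinase AT1G26270, 0.33 for AT5G44730 and -0.22 for AT3G10020. For AT1G19530, *SRO5*, *CYP707A3*, AT4G27450 and AT1G26270 the counting intervals of the read ratios did not overlap between genotypes.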

How the results depend on the processing

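No paired analysis was possible because the tables hold 1 value per gene and condition and no value per replicate, and for the same reason no replicate could be left out. Counts depended most on the threshold. The share of all genes called was computed only for the main setting, so the counts under the alternatives have no such share beside them. Whether they exceed that share was not tested. With a threshold of 2, 5 members were raised and 0 lowered by ATP in *gpa1-2*, 10 were raised and 0 lowered in WS, 0 were lower in ATP-treated *gpa1-2* than WS, and 0 differed in response in either direction. With a threshold of 1.5-fold, 6 were lowered in *gpa1-2* and 5 in WS, 17 were lower and 1 was higher in ATP-treated *gpa1-2*, 3 were lower and 1 was higher in untreated *gpa1-2*, and 16 had the lower response in *gpa1-2*, negative values included. With a pseudocount of 5, 1 member was lowered in *gpa1-2* and 4 were lower in ATP-treated *gpa1-2*. Every other count stayed within 1.5 times its value, and the 2 median responses stayed within the order-statistic interval of the members. None of the 50 single responses of 1 or more changed sign under an alternative. The response was lower in *gpa1-2* for 34 of 45 members with a filter at 10 FPKM and for 36 of 47 under each other alternative. The thresholds play no part in this count. Without a filter, and with at least 20 reads, the same 47 members were kept with the same values. Those alternatives could therefore not change it. Depth limited *HRE2* and AT2G17850 most, with 6 and 1 reads in untreated WS. At least 20 reads were reached by 42 of 47 members in untreated *gpa1-2* and by 43 in untreated WS. Others below 20 included AT5G10040, with 19 reads in untreated *gpa1-2* and 15 in untreated WS, and *PCO2*, with 17 in untreated *gpa1-2*.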
